A study of Sus scrofa with 12 samples.

Results

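Fatty acid and triglyceride synthesis was followed through 10 genes in the loin muscle (*Longissimus dorsi*) of Iberian pigs: *SCD*, *FASN*, *ACACA*, *ACACB*, *ACLY*, *ME1*, *ELOVL6*, *SREBF1*, *DGAT1* and *DGAT2*. They were chosen by name for their role in lipogenesis, and are 10 of 28224 annotated genes, of which 13313 had an assembled transcript in at least 1 library. The samples were 6 Tough and 6 Tender animals, with 1 RNA-seq library each. All were castrated males of a purebred Iberian line, not closely related, fattened outdoors on acorns and grass and slaughtered in the second year of life. They received no treatment and differed by selection for extreme estimated breeding values of shear force, the force needed to cut cooked meat. Shear force ran from 7.32 to 10.63 kg/cm2 among Tough animals, against 2.18 to 3.43 kg/cm2 among Tender ones. The groups are therefore extremes of 1 population and not a treatment and its control.

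New fatty acids are made in the cytosol. *ACLY* splits citrate into acetyl-CoA, *ACACA* carboxylates it to malonyl-CoA, *FASN* builds palmitate from both, and *ME1* supplies part of the NADPH that this needs. *ELOVL6* lengthens palmitate to stearate, *SCD* desaturates stearate to oleate, the main fatty acid of Iberian pork, and *DGAT1* and *DGAT2* add the last acyl chain of a triglyceride. *ACACB* also makes malonyl-CoA, but at the mitochondrial surface, where it restrains the entry of fatty acids for oxidation. *SREBF1* encodes the transcription factor that switches on many of these genes. In pigs the main lipogenic tissue is fat, and loin muscle contains intramuscular fat cells among its fibres.

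For none of the 10 genes was the difference between the Tough and Tender groups larger than the spread between animals. The ranges of the groups overlapped for 10 of 10 genes, which does not set them apart from other genes. Only 9 of the 9124 genes tested, or 0.0986%, had groups that did not overlap. The level of a gene is given in FPKM, fragments scaled to exon length and to the mapped fragments of the library, summed from the transcripts assembled in each library. *ELOVL6*, with a mean below 0.5 FPKM, was not tested. Of the 9 genes tested, 5 were higher and 4 lower in the Tough group by the sign of the fold change, and 0 reached a p of 0.05 in the limma model over all genes. Over all genes, 2.48% had a p of at most 0.05, 0.734% with a higher and 1.74% with a lower level in the Tough group. That split, 67 higher and 159 lower, depends on the scaling, and was 137 and 143 with median-of-ratios scaling and 142 and 149 with quantile scaling. No gene of the 9124 was called at the thresholds used, an adjusted p of 0.10 with a fold change of 1.5, which is 0.0% of them. By the exact Wilcoxon test 193 genes had a p of at most 0.05 and 0 were called. With 6 animals a group the p of that test cannot fall below 0.00216. A call over 9124 genes would need many genes at that floor, so the 0 calls add little. The median log2 fold change of the 9 genes was 0.04, against -0.04 over all genes tested.

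**Figure D1:**
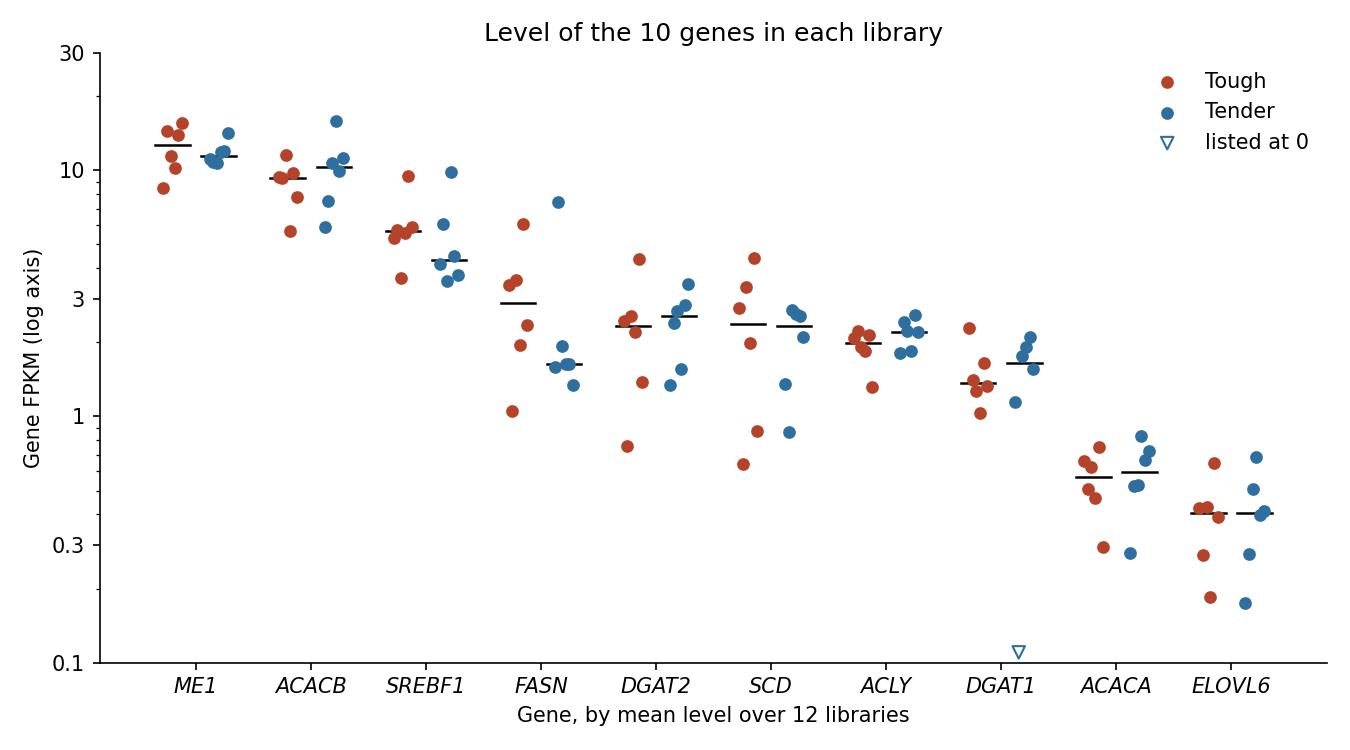
Level of each gene in each library, in FPKM on a log axis, with genes ordered by their mean over 12 libraries, Tough libraries left of Tender libraries, and a line at each group's median. *ME1* and *ACACB* lie near 10 FPKM, *ACACA* and *ELOVL6* below 1 FPKM, and the groups overlap for all 10 genes; the open triangle at the foot of the axis is *DGAT1* in Tender 2, listed at 0.

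The levels of the 10 genes spanned from 12.1 ± 2.06 FPKM for *ME1* to 0.400 ± 0.160 FPKM for *ELOVL6* (SD, n = 12). In between, by mean level, stood *ACACB*, *SREBF1*, *FASN*, *DGAT2*, *SCD*, *ACLY*, *DGAT1* and *ACACA*. *ACACB* exceeded *SREBF1* in 12 of 12 libraries, and *SREBF1* exceeded *FASN* in 11 of 12. *ME1* exceeded *ACACB* in 9 of 12 libraries, a mean log2 difference of 0.35 (exact sign-flip test over 4096 flips, two-sided, p = 0.0190, adjusted p = 0.0286 over the 9 neighbours). *FASN*, *DGAT2*, *SCD* and *ACLY* were not told apart by this measure. The smallest adjusted p among these 3 neighbouring pairs was 0.503 by the same exact test, which was chosen after the levels had been seen. Per exon base, a measure that leaves out bases outside annotated exons, *FASN* was above *DGAT2* in 10 of 12 libraries and *DGAT2* above *SCD* in 2 of 12 (exact sign-flip adjusted p = 0.0146 and 0.0159). Since FPKM is scaled to gene length, these are comparisons of levels between genes. The RNA came from whole muscle, and in such bulk samples fewer cells of a type and less RNA per cell cannot be told apart.

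The precision of these values differs with the level. The mean read depth over the exons was from 65.3 to 156 for *ME1* and from 45.7 to 103 for *ACACB*, but from 2.22 to 6.00 for *ACACA* and from 1.38 to 5.10 for *ELOVL6*. *ME1* was assembled as a single transcript with the 14 annotated exons in 12 of 12 libraries. *ACACA* was assembled in 2 to 8 pieces per library and *ELOVL6* in 1 to 5, so the levels of these 2 genes rest on fragments. The read counts behind the FPKM are unknown, and for a gene's summed FPKM no counting error is given.

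Of the 10 genes, *ACLY* and *ME1* varied least in level between animals. *ACLY*, on chromosome 12 (20796678 to 20841301), ran from 1.31 through a median of 2.00 to 2.23 FPKM in the Tough group, and from 1.82 through 2.21 to 2.59 FPKM in the Tender group. Its coefficient of variation over the 12 animals was 16.2%, the lowest of the 10 genes. The log2 fold change was -0.15 ± 0.12 (SE, adjusted p = 0.9999 in limma), with a 95% interval from -0.42 to 0.12. An interval of that width contains no fold change as large as 1.5 in either direction.

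*ME1*, the cytosolic malic enzyme on chromosome 1 (82799878 to 82989895), ran from 8.50 through 12.7 to 15.6 FPKM in the Tough group, and from 10.7 through 11.5 to 14.2 FPKM in the Tender group. The Tough animals were spread more widely, holding both the lowest value, Tough 1, and the highest, Tough 6. For *ME1* the log2 fold change was 0.04 ± 0.15 with a 95% interval from -0.28 to 0.37 (SE, adjusted p = 0.9999 in limma). Its coefficient of variation was 17.1%. *ME1* exceeded *ACLY* in 12 of 12 libraries, by 4.08 to 11.9 times.

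The 2 acetyl-CoA carboxylases were far apart in level. *ACACB*, on chromosome 14 (41621574 to 41739916), averaged 8.92 ± 1.99 FPKM in the Tough group, against 10.2 ± 3.45 FPKM in the Tender group (n = 6 each, SD). *ACACA*, on chromosome 12 (38580916 to 38875067), averaged 0.550 ± 0.163 FPKM in the Tough group, against 0.591 ± 0.194 FPKM in the Tender group (n = 6 each, SD). *ACACB* was higher in 12 of 12 libraries, by 12.2 to 26.4 times, with a median ratio of 16.3 in the Tough group, against 17.3 in the Tender group (two-sided exact permutation p = 0.522 for the log2 ratio). The order of the 2 genes was thus the same in every animal.

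For both carboxylases the groups overlapped. *ACACB* had a log2 fold change of -0.15 ± 0.22 and a 95% interval from -0.64 to 0.34 (SE, adjusted p = 0.9999 in limma). Its highest level, 15.9 FPKM, and that of *ACACA*, 0.835 FPKM, were both in Tender 4. The lowest Tender level of both genes was in Tender 1, with 5.90 FPKM of *ACACB* and 0.280 FPKM of *ACACA*. The cytosolic form had a log2 fold change of -0.05 ± 0.16 and a 95% interval from -0.39 to 0.29.

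The 12 annotated transcripts of *ACACA* use several first exons. Only 5 of 12 libraries held a piece whose 5′ end lay in an annotated first exon, and the longest piece had 53 exons and 8998 bases, against 10817 bases in the longest annotated transcript. At this depth the start used in each animal was not detectable for the rest.

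*FASN*, on chromosome 12 (922405 to 937560), was the most variable of the 10 genes, with a coefficient of variation of 70.7%. It ran from 1.05 through a median of 2.89 to 6.06 FPKM in the Tough group, and from 1.34 through 1.64 to 7.42 FPKM in the Tender group. The highest value of all 12 belonged to a Tender animal, Tender 2, while the other 5 Tender animals lay between 1.34 and 1.93 FPKM. In Tender 2 the gene was assembled as a single transcript of 41 exons at 7.27 FPKM, for which Cufflinks gives 95% limits of 7.02 and 7.53 FPKM. In the 6 Tough libraries *FASN* was a single transcript of 42 exons, and in the other 5 Tender libraries it was in 2 or 3 pieces. The log2 fold change of *FASN* was 0.29 ± 0.40 (SE, adjusted p = 0.9999 in limma), and 0.61 without Tender 2. Its 95% interval, from -0.57 to 1.16, allows FPKM + 0.5 to be up to 2.23 times as high in the Tough group. The ratio of FPKM itself would then be larger.

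*SCD*, the stearoyl-CoA desaturase gene on chromosome 14 (111461560 to 111478033), ran from 0.638 through 2.38 to 4.4 FPKM in the Tough group, and from 0.862 through 2.33 to 2.71 FPKM in the Tender group. The medians of the groups were nearly equal, and the highest and the lowest animal were both Tough, Tough 5 and Tough 2. The log2 fold change was 0.04 ± 0.37, with a 95% interval from -0.76 to 0.84 (SE, adjusted p = 0.9999 in limma). Leaving out single libraries moved it from -0.15, without Tough 5, to 0.27, without Tough 2. A transcript with the introns of an annotated *SCD* transcript was found in 11 of 12 libraries, and in Tough 2 the gene was broken into 2 pieces. In Tough 6, Tender 5 and Tender 6 the long last exon was also split, with a separate piece over its 3′ part.

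*ELOVL6*, on chromosome 8 (112038670 to 112190079), ran from 0.186 through 0.407 to 0.644 FPKM in the Tough group, and from 0.175 through 0.406 to 0.683 FPKM in the Tender group. The groups covered almost the same range (two-sided exact permutation p = 0.881). *FASN* exceeded *SCD* in 7 of 12 libraries, with ratios from 0.628 to 8.6, the highest in Tender 2, where *SCD* was at 0.862 FPKM.

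**Figure D2:**
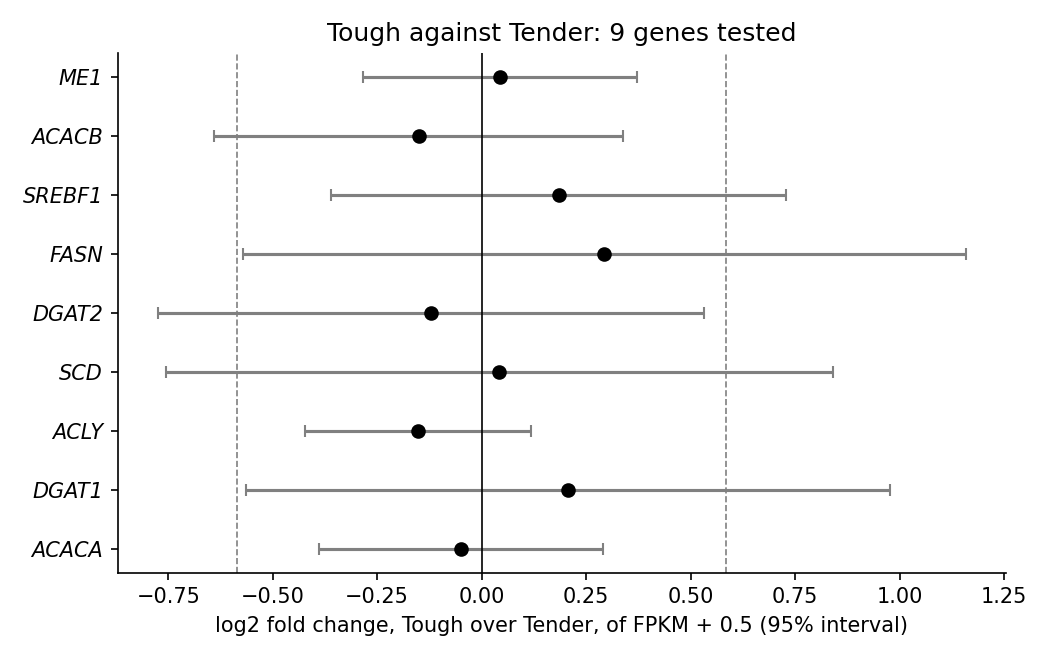
log2 fold change of FPKM + 0.5, Tough over Tender, for the 9 genes tested, with 95% intervals from limma (n = 6 each); dashed lines mark a fold change of 1.5 in either direction. The fold changes lie between -0.15 and 0.29, all 9 intervals include 0, and those of *ACLY*, *ME1* and *ACACA* lie within the dashed lines. The lines hold for FPKM + 0.5. For a gene as low as *ACACA* they do not exclude a 1.5-fold change of FPKM itself.

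*SREBF1*, on chromosome 12 (60733967 to 60750951), ran from 3.66 through 5.65 to 9.51 FPKM in the Tough group, and from 3.56 through 4.33 to 9.85 FPKM in the Tender group. Each group had a single animal well above the rest, Tough 5 and Tender 4. Tough over Tender, it had a log2 fold change of 0.18 ± 0.25 with a 95% interval from -0.36 to 0.73 (SE, adjusted p = 0.9999 in limma). It was -0.96 when transcripts needed 90% of their bases in annotated exons, in place of 50%. That rule drops the single *SREBF1* transcript of Tough 1 and of Tough 2, which leaves these libraries without a level.

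*SREBF1* has 2 annotated first exons. In human and mouse, an upstream and a downstream start give the forms SREBP-1a and SREBP-1c; the pig annotation used here does not name them. Transcripts with the upstream exon (60733967 to 60734067) were assembled in 10 of 12 libraries, those with the downstream exon in 10, and both in 8. The assembled 5′ ends lay within 26 bases before and 54 bases after the downstream annotated start. At the upstream exon they lay 114 to 1675 bases before the annotated start. The reference sequence of the upstream start, 250 bases before and 50 from the annotated start, is shown as the annotated 5′ end of the gene, to which the distances above are counted (Sscrofa11.1, RefSeq annotation, plus strand, 5′ to 3′, motifs that were searched for in capitals).
SREBF1 upstream start, chr12:60733717-60734016: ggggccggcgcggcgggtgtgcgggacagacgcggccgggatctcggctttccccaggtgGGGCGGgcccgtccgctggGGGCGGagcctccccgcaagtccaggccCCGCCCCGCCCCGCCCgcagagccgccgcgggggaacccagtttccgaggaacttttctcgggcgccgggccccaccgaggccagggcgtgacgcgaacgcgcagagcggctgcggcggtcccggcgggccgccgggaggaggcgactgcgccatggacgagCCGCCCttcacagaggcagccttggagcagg

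The window holds 6 GC boxes (GGGCGG on either strand, with overlaps counted). GC boxes stood in 50.6% of the windows of 19556 protein-coding genes and in those of 7 of the 10 genes. The sterol regulatory element motif TCACNCCAC, on either strand, was in 0.915% of all windows and in those of 0 of the 10 genes. With so low a share over all windows, 0 of 10 does not set these genes apart. All such counts are letter matches within 300 bases of an annotated start, and say nothing of the factors bound.

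Of the *SREBF1* FPKM that carried a first exon, the downstream exon had 47.6 ± 42.3% in the Tough group, against 65.9 ± 25.2% in the Tender group (n = 6 each, SD; two-sided exact permutation p = 0.374). In the Tough group, Tough 1 and Tough 2 had upstream transcripts alone and Tough 5 downstream transcripts alone. In the Tender group the share ran from 31.2% in Tender 6 to 100% in Tender 3. The downstream exon held the larger part in 7 of 12 libraries. In the animals of highest *SREBF1*, Tough 5 and Tender 4, downstream transcripts reached 11.7 FPKM and 9.5 FPKM. A single *SREBF1* transcript was assembled in Tough 1, Tough 2, Tough 5 and Tender 3, so their shares could only be 0 or 100%. Elsewhere the shares come from Cufflinks' division of reads among the assembled transcripts. This comparison was chosen after the transcripts had been seen.

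**Figure D3:**
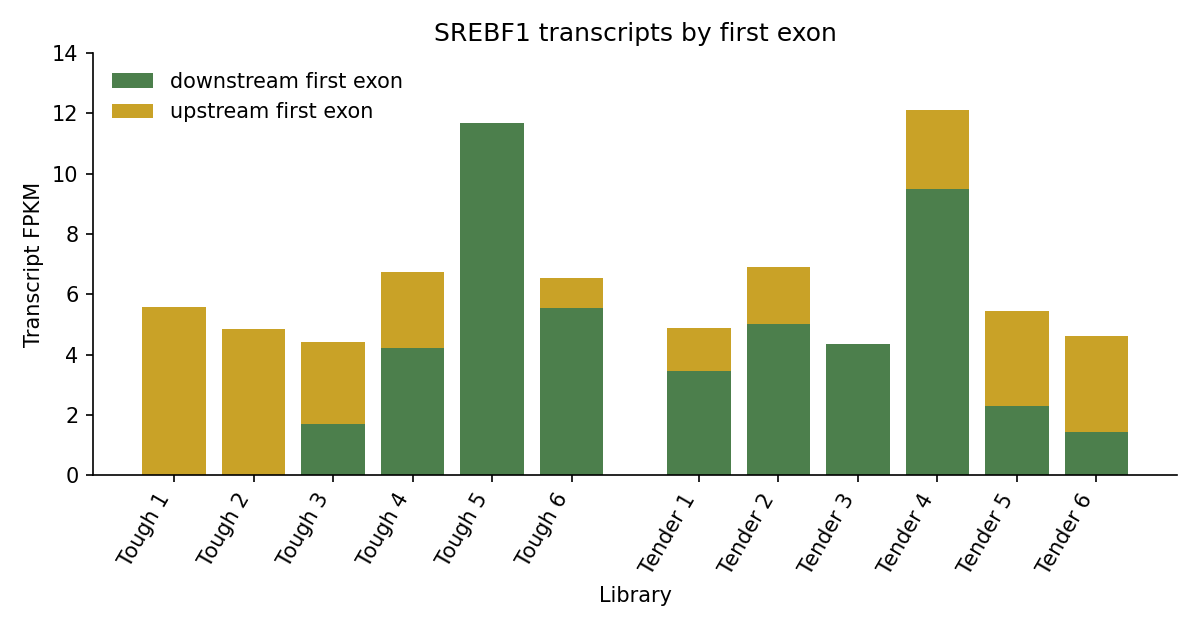
FPKM of the *SREBF1* transcripts that carry a first exon in each library, Tough left of Tender, stacked by the downstream and the upstream first exon. The downstream exon has all of the level in Tough 5 and Tender 3, none in Tough 1 and Tough 2, and a part in the other 8 libraries.

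*DGAT2*, the diacylglycerol acyltransferase gene on chromosome 9 (10032163 to 10066082), ran from 0.756 through 2.33 to 4.38 FPKM in the Tough group, and from 1.35 through 2.55 to 3.45 FPKM in the Tender group. Tough 2 was the lowest and Tough 5 the highest of the 12. The log2 fold change was -0.12 ± 0.30 with a 95% interval from -0.77 to 0.53 (SE, adjusted p = 0.9999 in limma), and 0.08 without Tough 2. *DGAT2* is among the genes that the study listed as differential between these groups by another method and annotation, on a set of animals that includes these but is not the same, so its choice is not independent of these data.

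In 11 of 12 libraries the *DGAT2* transcript ended 703 to 856 bases past the annotated end of the gene, and in Tender 4 it ended 26 bases past it. The median long end lay 849 bases beyond the annotation, with the polyadenylation signal AATAAA beginning 15 bases before it. Because the annotated gene has 1478 exonic bases and the long transcripts 2227 to 2399, the FPKM above, which divides by the annotated length, counts bases that lie outside the gene. Per exon base, which leaves these out, *DGAT2* ran from 0.502 through 1.46 to 2.70 FPKM in the Tough group, and from 0.860 through 1.59 to 2.16 FPKM in the Tender group. Its log2 fold change was then -0.17 ± 0.25 (SE, adjusted p = 0.9999 in limma).

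*DGAT1*, on chromosome 4 (452890 to 463665), ran from 1.04 through 1.36 to 2.29 FPKM in the Tough group. In the Tender group 5 libraries had 1.15 to 2.1 FPKM, and the gene is listed at 0 in Tender 2. In that library no *DGAT1* transcript was assembled. A transcript of *HSF1*, the neighbour that meets *DGAT1* tail to tail on the opposite strand, reached 2646 bases into the gene there, and in 0 other libraries did one reach over 1000 bases. The log2 fold change of *DGAT1* was 0.21 ± 0.35 (SE, adjusted p = 0.9999 in limma) and -0.15 without Tender 2, so its sign rests on the listed 0. *DGAT2* exceeded *DGAT1* in 9 of the 11 libraries with both, and in 4 of 11 per exon base. Which acyltransferase is the higher therefore depends on how *DGAT2* is measured.

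Of a list of 60 further genes of fatty acid and triglyceride synthesis and its regulation, 46 were tested. At a p of 0.05, 1 was higher and 1 lower in the Tough group, and 0 were called. The median log2 fold change was -0.07, against -0.04 over all genes. The gene of smallest p was *GPAT3*, which adds the first acyl chain to glycerol 3-phosphate. It ran from 1.10 through 1.42 to 2.02 FPKM in the Tough group, and from 1.83 through 2.02 to 2.70 FPKM in the Tender group (log2 fold change -0.38 ± 0.13 SE, exact permutation p = 0.0152, adjusted p = 0.9999 in limma). *FADS2*, the delta-6 desaturase of polyunsaturated fatty acids, ran from 2.72 through 4.08 to 6.90 FPKM in the Tough group, and from 1.59 through 2.22 to 4.95 FPKM in the Tender group (log2 fold change 0.72 ± 0.26 SE, exact permutation p = 0.0325, adjusted p = 0.9999 in limma). The groups overlapped for both genes. Next by p, none at or below 0.05, came *MCAT* and *MECR* of mitochondrial fatty acid synthesis, with log2 fold changes of -0.33 and -0.27. *USF2*, a regulator of lipogenic promoters, had -1.73 and is listed at 0 in 1 Tough library. *MID1IP1*, which activates acetyl-CoA carboxylase, had 0.21.

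Fat cell genes were measured as a check on which cell types the loins contained. The study reported less intramuscular fat in its animals with tougher meat than in those with tenderer meat. Its set of animals includes these but is not the same. Fat content per animal was not used here, and the marker levels below do not measure it. Fat content and group cannot be told apart in this design. Of the 5 defining markers, the summed level ran from 15.7 to 37.2 FPKM in the Tough group, and from 9.73 to 31.0 FPKM in the Tender group (two-sided exact permutation p = 0.755). *FABP4*, *PLIN1* and *CIDEC* had values in 12 of 12 libraries, and *LEP* in 9, at most 0.271 FPKM. *ADIPOQ* is listed at 0 in all 12 by the rule that 50% of a transcript must lie in the gene, and per exon base it had from 1.06 to 8.12 FPKM in the Tough group, and from 1.47 to 6.48 FPKM in the Tender group. Markers of muscle fibres summed to far higher levels, from 7441 to 11691 FPKM in the Tough group, and from 6315 to 12797 FPKM in the Tender group. *ALB* and *TTR*, markers of liver, are listed at 0 in all libraries, and the third, *APOA1*, had 3.20 to 11.65 FPKM in the Tough group, and 4.13 to 9.72 FPKM in the Tender group.

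Of the wider list of 15 fat cell genes, 9 were tested, with 0 higher and 1 lower in the Tough group at a p of 0.05 and a median log2 fold change of -0.16. The gene was *AQP7*, a glycerol channel that muscle also expresses. It averaged 1.78 ± 0.673 FPKM in the Tough group, against 3.21 ± 1.29 FPKM in the Tender group (n = 6 each, SD; exact permutation p = 0.0411, adjusted p = 0.9999 in limma). *LIPE*, the hormone-sensitive lipase that releases fatty acids from stored fat, was next, with 19.4 ± 7.78 FPKM in the Tough group, against 34.3 ± 15.9 FPKM in the Tender group (n = 6 each, SD; exact permutation p = 0.0887, adjusted p = 0.9999 in limma). *CIDEA*, *FABP4*, *PLIN1* and *CFD* followed, with log2 fold changes between -0.61 and 0.22.

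The 10 genes were next compared across animals. The level of the fat cell markers in an animal was taken as the mean log2(FPKM + 0.5) of the 5, which ran from 0.59 in Tough 2 to 1.65 in Tough 5 and from 0.23 in Tender 1 to 1.44 in Tender 5. Since *ADIPOQ* is listed at 0 throughout and *LEP* is at most 0.271 FPKM, this mean varies almost only with *PLIN1*, *CIDEC* and *FABP4*. *DGAT2* varied with it most closely, with a Pearson r of 0.77 (n = 12, p = 0.00329, adjusted p = 0.0329 over the 10 genes) and a Spearman rho of 0.78 (p = 0.00390, adjusted p = 0.0390), by permutation. Without Tough 2 and Tender 1, the 2 animals farthest from the median of the markers, r was 0.66. Within the groups r was 0.90 in the Tough animals and 0.71 in the Tender animals (n = 6 each, exact p = 0.0222 and 0.0750, adjusted p = 0.176 and 0.3 over 20). The adjusted p was above 0.05 when Tough 2, Tough 3, Tough 5, Tender 3 or Tender 5 was left out singly, with a highest value of 0.159 and an r between 0.71 and 0.82 over all 12 omissions. With quantile normalization r was 0.68 (adjusted p = 0.0929 by permutation), and with the 90% assignment rule, which drops the long *DGAT2* transcripts, it was -0.31 (adjusted p = 0.360 by permutation). Per exon base r was 0.85, with the plain sum of transcript FPKM 0.80 and with the highest transcript alone 0.78 (adjusted p = 0.00530, 0.0189 and 0.0326 by permutation). By rank the adjusted p was 0.0596 per exon base, 0.120 with the plain sum and 0.0124 with the highest transcript, by permutation. Of the 10 genes, 9 had a positive r with the markers.

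*ACACA* and *ELOVL6* had r of 0.65 and 0.64 with the fat cell markers (n = 12, permutation p = 0.0220 and 0.0232, adjusted p = 0.0775 for both), which fell to 0.42 and 0.38 without Tough 2 and Tender 1. *SCD* and *FASN* had r of 0.56 and 0.54 over the 12 animals (permutation p = 0.0555 and 0.0684). In the Tough animals r was 0.82 for *SCD* and 0.91 for *FASN* (n = 6, exact p = 0.0389 and 0.0264, adjusted p = 0.194 and 0.176). In the Tender animals it was 0.30 for *SCD* and 0.29 for *FASN* (n = 6, exact p = 0.637 and 0.362, adjusted p = 0.880 and 0.659). The difference between the groups in these relations was not tested. *ME1*, *SREBF1* and *DGAT1* had r of 0.09, 0.24 and -0.04. For *ACLY* r was 0.74 in the Tender animals, with the 6 in the same order (n = 6, exact p = 0.0181, adjusted p = 0.176). Whether the number of fat cells takes part in these relations was not tested.

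**Figure D4:**
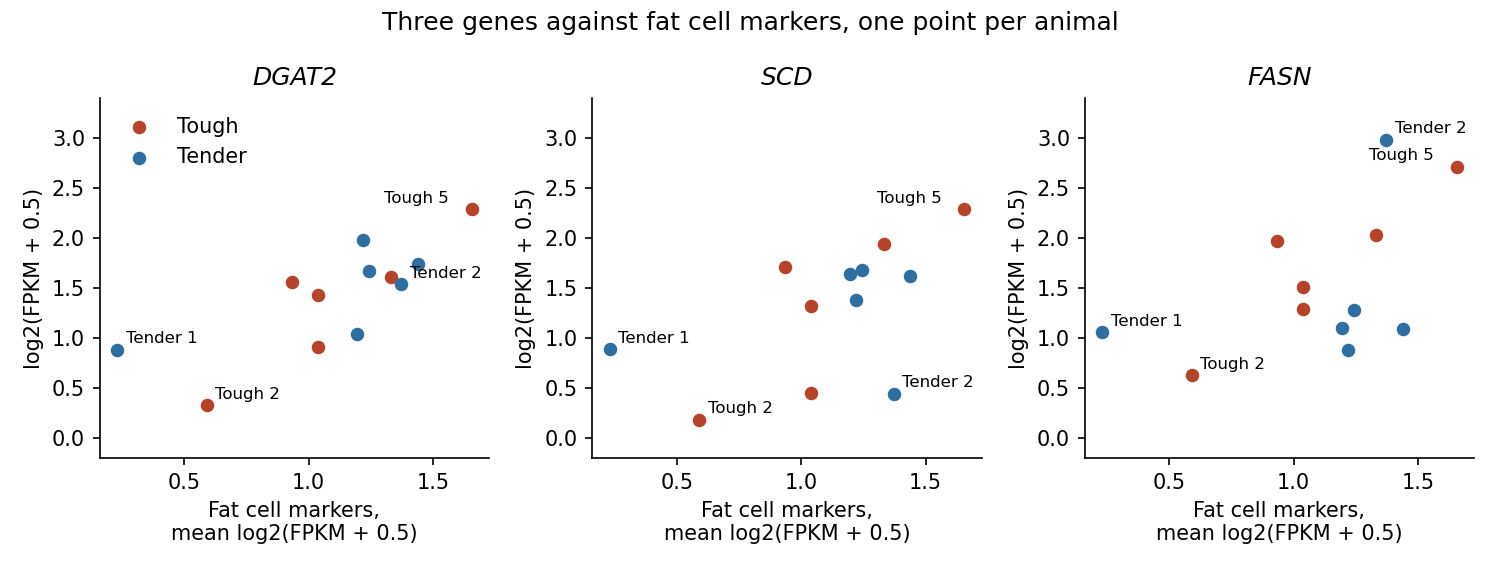
Level of *DGAT2*, *SCD* and *FASN* against the mean of 5 fat cell markers, both as log2(FPKM + 0.5), 1 point per animal, Tough and Tender by colour; *ADIPOQ*, listed at 0, adds a constant. *DGAT2* rises along the markers in both groups, and Tender 2 stands low for *SCD* and high for *FASN* at a marker mean of 1.37.

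Among themselves, 34 of the 45 pairs of genes had a positive r, with a median of 0.20. Only *ACACB* and *ELOVL6* passed the adjustment by Pearson's r, at 0.85 (n = 12, permutation p = 0.00067, adjusted p = 0.0301 over 45 pairs), with a rho of 0.84 (permutation p = 0.00104, adjusted p = 0.0353). Without the 2 animals farthest from the median of *ACACB*, r was 0.71. Within groups it was 0.68 in the Tough animals and 0.98 in the Tender animals (n = 6 each, exact p = 0.132 and 0.00556, adjusted p = 0.736 and 0.225 over 90). The adjusted p was above 0.05 when Tough 1, Tough 4, Tender 1, Tender 2, Tender 3 or Tender 4 was left out singly, up to 0.171, and r stayed between 0.79 and 0.92. It was also above 0.05 with median-of-ratios scaling (r = 0.81, adjusted p = 0.0837) and quantile normalization (r = 0.80, adjusted p = 0.0900), both by permutation. The same held for the plain sum of transcript FPKM (r = 0.39, adjusted p = 0.590) and the highest transcript alone (r = 0.62, adjusted p = 0.380), by permutation. With the 90% assignment rule r was 0.28 (adjusted p = 0.783 by permutation). That rule drops the highest *ACACB* transcript of Tough 4, Tough 5, Tough 6, Tender 3 and Tender 4.

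*ACACA* joined this pair, with r of 0.78 to *ACACB* and 0.72 to *ELOVL6* (n = 12, permutation p = 0.00278 and 0.00855, adjusted p = 0.0625 and 0.0962). By rank both pairs passed, with rho of 0.79 and 0.83 (adjusted p = 0.0372 and 0.0353 by permutation), as did *SCD* with *ELOVL6*, with a rho of 0.80 (adjusted p = 0.0372 by permutation). *ACACA* and *ELOVL6* are the 2 genes of lowest read depth, and both were assembled in pieces.

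*SCD* and *DGAT2*, which make and store oleate, had an r of 0.75 (n = 12, permutation p = 0.00486, adjusted p = 0.0729). In the Tough animals r was 0.96 and the order of the 6 animals was the same for both genes (exact p = 0.00139, adjusted p = 0.125). In the Tender animals r was 0.22 (n = 6, exact p = 0.715, adjusted p = 0.877). Leaving out single animals, r lay between 0.63 without Tough 2, the lowest in both genes, and 0.85 without Tender 2 (permutation p = 0.0376 and 0.000900, adjusted p = 0.208 and 0.0405). With all 12 it was 0.81 per exon base (adjusted p = 0.0342 by permutation). It was 0.16 with the 90% assignment rule, which drops the long *DGAT2* transcripts (adjusted p = 0.861 by permutation). The reference sequence at the starts of these 2 genes is shown for comparison (Sscrofa11.1, RefSeq annotation, plus strand, 250 bases before and 50 from the annotated start, 5′ to 3′, motifs in capitals).
SCD, chr14:111461310-111461609: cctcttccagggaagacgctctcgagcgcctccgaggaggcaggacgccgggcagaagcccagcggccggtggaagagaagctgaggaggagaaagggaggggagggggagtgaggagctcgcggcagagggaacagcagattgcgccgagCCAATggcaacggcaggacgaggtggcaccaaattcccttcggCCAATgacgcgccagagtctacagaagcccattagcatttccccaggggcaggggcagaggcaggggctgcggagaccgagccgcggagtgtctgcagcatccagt
DGAT2, chr9:10031913-10032212: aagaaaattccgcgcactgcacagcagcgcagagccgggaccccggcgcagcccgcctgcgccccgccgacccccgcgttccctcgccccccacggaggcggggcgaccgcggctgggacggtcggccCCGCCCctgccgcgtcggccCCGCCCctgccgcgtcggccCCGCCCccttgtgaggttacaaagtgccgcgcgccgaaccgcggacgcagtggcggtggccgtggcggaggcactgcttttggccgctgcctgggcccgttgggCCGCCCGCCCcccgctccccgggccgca

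The *SCD* window holds 2 CCAAT boxes (CCAAT, on either strand, found in 35.4% of all windows), at positions -99 and -56 from the annotated start, and no GC box. The *DGAT2* window holds 5 GC boxes (GGGCGG, on either strand) and no CCAAT box. Its GC content was 79.0%, against 65.3% for *SCD*. The windows thus have none of the motifs searched in common. Those motifs were the sterol regulatory element, the E-box CACGTG, found in 7.92% of all windows, the CCAAT box, the GC box and the TATA box TATAAA, found in 10.9%, all on both strands.

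*SCD* and *FASN*, which act in sequence, had an r of 0.23 over the 12 animals (permutation p = 0.480, adjusted p = 0.829). In the Tough animals r was 0.89 (n = 6, exact p = 0.0125, adjusted p = 0.225), and in the Tender animals it was -0.76 (n = 6, exact p = 0.133, adjusted p = 0.736). Without Tender 2, the animal of highest *FASN*, r over the other 11 was 0.67 (permutation p = 0.0249, adjusted p = 0.184). Without Tough 2 it was 0.03 and without Tough 5 it was -0.02 (permutation p = 0.943 and 0.966, adjusted p = 0.943 and 0.981). *FASN* and *DGAT1* had the lowest r of all pairs, -0.52, which was 0.12 without the 2 animals farthest from the median of *FASN*. It rests on Tender 2, with the highest *FASN* and *DGAT1* listed at 0.

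**Figure D5:**
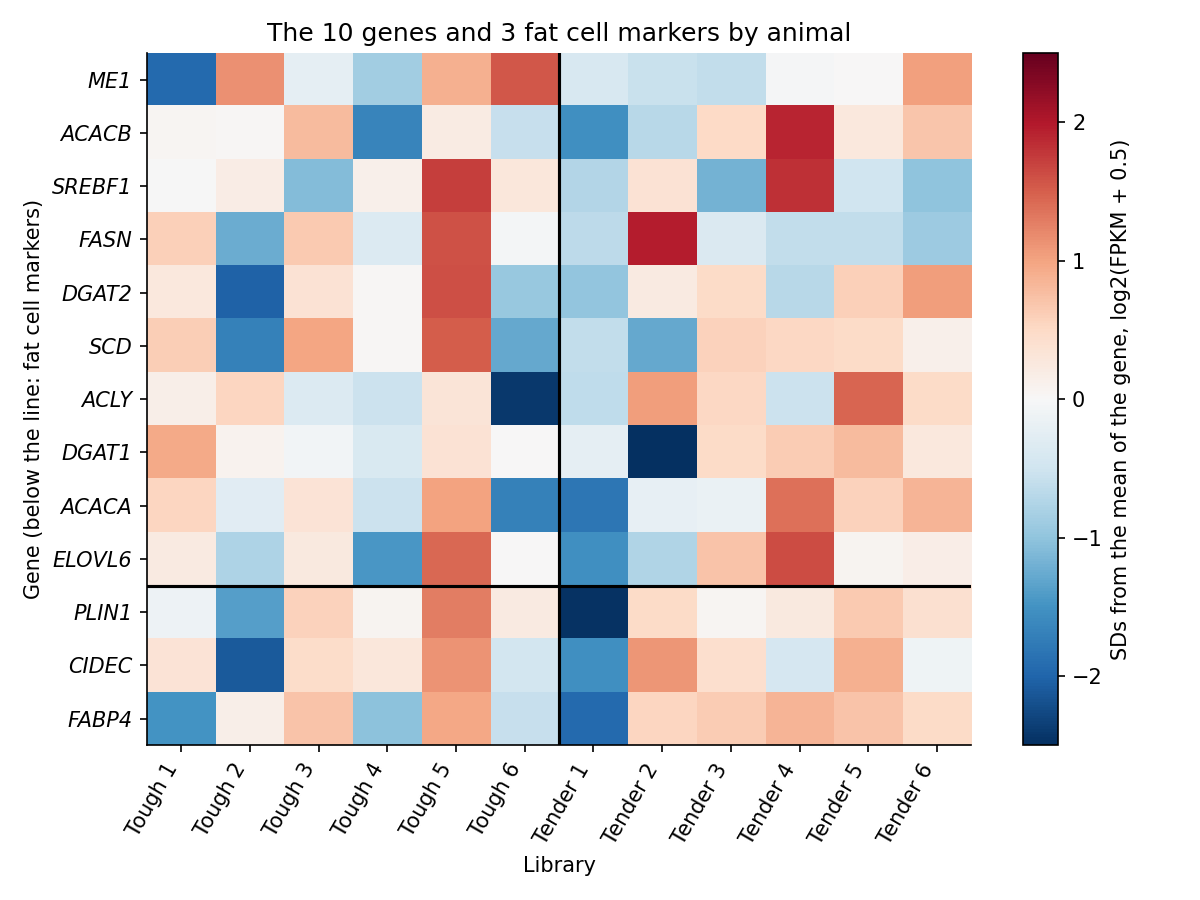
Heat map of the 10 genes, ordered by mean level, and of 3 fat cell markers below the line, as SDs from each gene's mean of log2(FPKM + 0.5), Tough libraries left of the vertical line and Tender libraries right of it. Tough 5 is high for most genes and for all 3 markers, Tough 2 is low for *SCD*, *FASN* and *DGAT2*, and Tender 2 has the highest *FASN* and the lowest *DGAT1*.

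A few animals stood out across the genes. Tough 5 had the highest Tough level of *SCD*, *FASN*, *ACACA*, *ELOVL6*, *SREBF1* and *DGAT2*, and also of *PLIN1*, *CIDEC*, *LEP* and *FABP4*. Tough 2 had the lowest Tough level of *SCD*, *FASN*, *DGAT2*, *PLIN1* and *CIDEC*, but not of *ACLY*, in which it was the highest Tough animal at 2.23 FPKM. Tender 4 had the highest level of *ACACA*, *ACACB*, *ELOVL6* and *SREBF1* of all 12 animals, with 9.85 FPKM of *SREBF1*. Tender 1 was lowest in *ELOVL6*, *ACACA* and *PLIN1*.

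Shear force within a group was not tied to any of the genes after adjustment. By r, the smallest p of 20 relations was for *ME1* in the Tough animals, with r = -0.84 and rho = -0.83 (n = 6, exact p = 0.0431 and 0.0583, adjusted p = 0.715 and 0.583 over 20). Without the 2 animals farthest from the median shear force its r was -0.62. By rank, the smallest p was for *SREBF1* in the Tender animals, with rho = -0.89 (n = 6, exact p = 0.0333, adjusted p = 0.583). In the Tender animals *SCD*, *DGAT1* and *FASN* had r of 0.74, 0.84 and -0.84 (n = 6 each, exact p = 0.107, 0.121 and 0.143, adjusted p = 0.715 each). Their rho was 0.43, 0.09 and -0.37, and r changed to -0.99, -0.98 and -0.28 without the 2 farthest animals, so these relations rest on those animals. No r over both groups is given, since the groups were selected on this trait.

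The genes most alike to each of the 10 over the 12 animals were looked for among the genes with a name and a mean of at least 1 FPKM, as a description without a test. *ACLY* was closest to *MLYCD*, which degrades malonyl-CoA (r = 0.94), then to *METTL1* and *PDLIM1*. *ACACB* was close to *UBE4B* (r = 0.91) and to *ME2*, the mitochondrial malic enzyme (r = 0.91), then to *C1H15orf41*. *DGAT2* was closest to *APOE*, an apolipoprotein that binds lipid particles (r = 0.88), then to *EIF2S3* and *ALDOC*. *FASN* was closest to *MED25* and *CEBPA*, a transcription factor of fat cell differentiation (r = 0.82 each), then to *FEN1*, with r of 0.53, 0.58 and 0.43 without the 2 animals farthest from the median of *FASN*. *SREBF1* was closest to *HDAC4* (r = 0.91), *GRAMD4* and *MAN2A2*. *ACACA* was closest to *CD59* (r = 0.96), *EPS15L1* and *EMP1*, and *ELOVL6* to *MDFIC* (r = 0.90), *ABCG2* and *SUFU*. *SCD* was closest to *LGI4* (r = 0.83), *HDAC7* and *F2RL2*, and *ME1* to *TPGS2* (r = 0.83), *RIOK2* and *BMI1*. The points share library preparation and depth, 7368 genes were compared, and *DGAT1* was left out because of its listed 0. *HDAC7*, *ABCG2* and *EIF2S3* are themselves listed at 0 in 4, 3 and 4 libraries.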

How the data were processed

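Total RNA of *Longissimus dorsi* from 12 pigs was sequenced as paired-end TruSeq libraries on a HiSeq2000. Per the study's methods and the labels, reads were checked with FastQC, trimmed with Trim Galore, aligned to Sscrofa11.1 with TopHat2 (2.1.0) and assembled per library with Cufflinks (2.2.1). The deposited files give, for each assembled transcript, FPKM with its limits, read coverage and a relative abundance score, all made by the authors with Cufflinks; read counts are unknown. Libraries held 25798 to 31353 transcripts and a coverage of 6.55 to 10.3 reads per base for 1 FPKM. Sequencing lanes were not given in the sources used here, so batch and group cannot be told apart.

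Transcripts were assigned to the genes of the NCBI annotation (Release 106) that held at least 50% of their exonic bases on the same strand, which took in 66.9 to 77.8% of them. A gene's FPKM is the sum of transcript FPKM times transcript length over the exon length of the gene. Groups were compared with limma (3.58.1, R 4.3.3) on log2(FPKM + 0.5), with a variance trend, over the 9124 genes of mean above 0.5 FPKM. Fold changes are on this log2 scale, which understates changes of low genes. A call needed a p up to 0.05, a Benjamini-Hochberg adjusted p up to 0.10 and 1.5-fold. Exact permutation tests of a single value ran over 924 splits, of which the smallest p possible is 0.00216, and correlations with 100000 permutations, or all 720 within a group, all two-sided. On simulated data for 9124 genes, 66% of genes given a log2 change of 1 were called, and 80% at a change of 2, with 11 false calls. There 100 genes were changed at each size and the genes varied independently. With fewer changed genes the adjustment asks for a smaller p, so these shares are not the power for a single gene in these data. Each animal is a separate replicate. Python 3.11.15 (scipy 1.17.1, pandas 2.3.3, numpy 2.4.6, matplotlib 3.10.9) and bedtools (2.31.1) were used.

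The 10 genes, the list of 60 pathway genes, the list of 15 fat cell genes and the cell markers were chosen with earlier results of these data known. Named from each list were the genes of smallest p, up to 6, and for each of the 10 genes the 3 others of highest r. *MB* and *AGPAT2* were not matched by name. Markers of endothelium summed to 14.9 to 31.5 FPKM in the Tough and 24.2 to 39.1 FPKM in the Tender group, of macrophages to 1.96 to 7.51 and 2.76 to 8.02 FPKM, and of fibroblasts to 42.1 to 151 and 49.3 to 97.6 FPKM. Alternatives were another pseudocount, filter, scaling and assignment rule, array weights, a replicate block and leaving out each library. One reference sequence is not reported here.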

Additional observations from a re-analysis of the deposited data

Results flagged for a closer look

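Of 20 sets of 6 animals, 10 genes in each group, 2 had an animal whose gap to its nearest neighbour was over 0.625 of the range, a size that chance gives in about 1 set of 20. *FASN* in Tender 2, at 7.42 FPKM, had a gap of 0.902 of the Tender range. *ME1* in Tender 6, at 14.2 FPKM, had a gap of 0.645 of the Tender range. Per exon base the Tender levels of *ME1* ran from 9.07 FPKM in Tender 2 to 11.5 FPKM in Tender 5 and 12.2 FPKM in Tender 6. The gap was then below the 0.625 limit, so this flag depends on counting bases outside the gene.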

How the results depend on the processing

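Over 223 alternative fits of the fold changes of the 9 genes tested, 208 kept the direction, 15 turned it and 0 reached a p of 0.05 (lowest adjusted p 0.712 in limma). The direction turned for *SREBF1* with the 90% assignment rule (-0.96), for *SCD* and *FASN* with the plain sum of transcript FPKM (-0.053 and -0.079) and for *ACACA* with array weights (0.0053). Leaving out single libraries gave -0.15 to 0.27 for *SCD* (negative without Tough 1, 3 or 5, or Tender 1 or 2), -0.026 to 0.14 for *ME1* (negative without Tough 2 or 6), -0.31 to 0.084 for *DGAT2*, -0.14 to 0.027 for *ACACA* (positive without Tough 6 or Tender 4) and -0.15 to 0.33 for *DGAT1*. The plain sum turned r to -0.12 for *ACACA* with the fat cell markers and to -0.060 for *ACACA* with *ELOVL6*, and the 90% rule, which drops the long *DGAT2* transcripts by construction, gave -0.31 for *DGAT2* with the markers. The 90% rule likewise drops the single *SREBF1* transcript of Tough 1 and of Tough 2. Apart from these dropped transcripts, the causes were not tested.

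Genes at a p of 0.05 numbered 226 in the main setting, 367 without a filter, 384 with the plain sum, 342 with the highest transcript, 656 with array weights and 147 to 412 without single libraries, with 0 called in each omission. Of the 226, 67 were higher and 159 lower in the Tough group, against 137 and 143 with median-of-ratios scaling, 142 and 149 with quantile scaling, and 251 and 161 without Tender 4. Pathway genes at this p numbered 2, against 1 with either scaling, 0 with the highest transcript, 4 with array weights and 2 to 4 without single libraries. Fat cell genes numbered 1, against 0 with the 90% rule, the plain sum, the highest transcript or the replicate block, 2 with array weights and 0 to 2 without single libraries. Of the 9 genes, 5 were higher in the Tough group, against 3 with the plain sum and 3 to 6 without single libraries. Relations with the markers that passed numbered 1, against 0 with quantile scaling or the 90% rule and 0 to 3 without single libraries. Pairs that passed numbered 1, against 0 with either scaling or the plain sum, 3 per exon base and 0 to 3 without single libraries. The omissions for correlations were chosen after seeing the data. Animals of the 2 groups share only a number: same-numbered animals correlated between -0.22 and 0.02, and the replicate block gave 177 genes at a p of 0.05 and 0 called.

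With 6 animals a group, the intervals of the 9 genes tested reach from -0.77 to 1.16 on the log2 scale, so smaller differences were not detectable for the more variable genes. Low depth limits *ACACA* and *ELOVL6*.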
